A study of Mus musculus with 12 samples.

Results

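The miRNAs of mouse bone marrow granulocytes were compared between nuclear and cytoplasmic RNA by TLDA RT-qPCR, an array card on which each miRNA is amplified in a well of its own. The CT is the PCR cycle at which the product crosses a fixed threshold, so more template gives a lower CT, and each cycle is a factor of 2 where amplification is complete. The series holds 12 samples, which are nuclear, cytoplasmic and whole cell RNA of LSK cells (lineage negative, Sca1+ cKit+ cells that include stem cells) and of promyelocytes, myelocytes and granulocytes. All came from sorted bone marrow cells of C57BL/6 mice without treatment or genetic change; each group is 1 sample, and neither the age of the mice nor the number pooled is given in the sources used here. Nuclei and cytoplasm were separated with a fractionation kit before Trizol extraction, and 100 ng of RNA per sample was reverse transcribed according to the labels. The members are those named assays whose CT was below 30 in granulocyte nuclear or cytoplasmic RNA, 103 of the 593 assays of the table and of the 269 that could be named. All 103 had a cytoplasmic CT under 30, and 57 also had a nuclear CT under 30, so the limit acted on the cytoplasmic sample alone. With 1 sample per fraction and 1 well per assay there is no replicate check, no p-value is given, and differences are described by their size.

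A miRNA is cut from its primary transcript in the nucleus, exported as a hairpin and trimmed in the cytoplasm to a duplex, from which an Argonaute protein usually keeps the guide arm and discards the passenger arm, marked by a star in the older names used here. Mature miRNAs pair with mRNAs mainly through the seed, the bases from position 2 to position 8, and most of their known work of lowering translation and mRNA stability takes place in the cytoplasm. Mature miRNAs can also return to the nucleus with Argonaute. In neutrophil granulocytes miR-223 is the best known abundant miRNA, and miR-142 is general to blood cells.

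Sequences of miRNAs that lay far to either side are shown first, with partner arms and seed relatives, from RefSeq (GRCm38.p6), with the seed in capitals. A mature sequence of RefSeq was matched to 85 of the 103 members; miR-709, miR-801, miR-532-5p and miR-720, which also lay far out, are named only. The first set holds miRNAs with the smallest difference between the fractions, or named by the study as nuclear candidates, and beside them the second arm of their hairpin or a miRNA with the same seed.
miR-135a*: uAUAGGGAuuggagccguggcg
miR-135a: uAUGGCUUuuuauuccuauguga
miR-142-3p: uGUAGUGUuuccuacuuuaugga
miR-142-5p: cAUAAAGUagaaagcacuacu
miR-706: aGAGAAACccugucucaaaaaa
miR-690: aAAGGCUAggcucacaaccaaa
miR-130b: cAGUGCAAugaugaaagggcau
miR-301a: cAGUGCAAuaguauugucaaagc

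The other set holds miRNAs with large differences, passenger arms with their guide arms, the clustered miR-503, and miR-223 as the member with the lowest CT.
miR-106b*: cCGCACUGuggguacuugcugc
miR-106b: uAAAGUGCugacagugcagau
miR-27a*: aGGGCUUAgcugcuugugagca
miR-27a: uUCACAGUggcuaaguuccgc
miR-322*: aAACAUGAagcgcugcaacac
miR-322: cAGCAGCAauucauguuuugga
miR-503: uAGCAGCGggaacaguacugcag
miR-26b*: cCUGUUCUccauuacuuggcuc
miR-26b: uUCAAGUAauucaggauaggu
miR-223: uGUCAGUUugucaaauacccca

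In GRCm38.p6, miR-142-3p lies at chr11:87756903-87756925 on the plus strand, and miR-135a* at chr9:106154179-106154200 on the plus strand within the span of Glyctk. miR-706 lies at chr6:120034290-120034311 on the minus strand within the span of Wnk1, miR-690 at chr16:28599940-28599961 on the minus strand within Fgf12, and miR-106b* at chr5:138165746-138165767 on the minus strand within Mcm7. The table of genes used gives gene spans only, so exons and introns were not told apart. miR-322* and miR-503 lie next to each other on chromosome X.

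Set against LSK cells, the cells carried the miRNAs of their label. miR-223 had the lowest CT of all members in both fractions, 16.83 in cytoplasmic and 20.35 in nuclear RNA, and 16.43 in whole cell RNA. miR-142-3p had a CT of 22.18 in cytoplasmic and 23.42 in nuclear RNA. Of the progenitor miRNAs, miR-125a-5p had a cytoplasmic CT of 35.23 and was undetermined in nuclear RNA, and miR-125b-5p, miR-130a and miR-155 had cytoplasmic CTs of 33.01, 33.69 and 31.18, against 26.96, 27.61 and 24.92 in LSK cells. miR-126-3p, at 28.38 in the cytoplasm against 23.08 in LSK cells, was the only one of the 5 progenitor miRNAs checked that passed the limit. In myelocytes the cytoplasmic CTs of miR-223, miR-142-3p and miR-126-3p were close to these, at 17.56, 21.97 and 28.41. These 3 thus do not set granulocytes apart from myelocytes. The lymphoid miR-150 and miR-181a were measured at 26.46 and 29.84 in the cytoplasm, and the erythroid miR-486 at 33.64; no assay could be named for miR-451 or miR-144. The part of other marrow cells in the values below was not tested.

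Every one of the 100 members measured in both fractions had its lower CT in cytoplasmic RNA. The CT limit fixed this direction for those with a nuclear CT of 30 or more; all 57 members under 30 in both fractions had it as well. The nuclear minus cytoplasmic CT ran from 0.45 to 6.72 cycles with a median of 2.60 cycles, and the quartiles were 2.19 and 3.10. At the median there was 6.04-fold more of a miRNA in the cytoplasmic than in the nuclear reaction. On the scale of the study, a nuclear:cytoplasmic ratio taken as 2 raised to the cytoplasmic minus nuclear CT and divided by 3, the median ratio was 0.0552. What the divisor stands for is not stated in the sources used here, and the fractions are described there both by 100 ng of RNA and by cell-equivalent volumes. A factor common to a whole fraction shifts every member alike, so the members are set against their own median below. This does not remove cytoplasmic RNA carried over into the nuclear fraction, which the paper proposes for most of the low nuclear signal. Its part was not tested here.

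Nuclear CT followed cytoplasmic CT along a line with a slope of 1.0002 and a Pearson's r of 0.95 over the 100 measured members; these are assays of the same 2 samples, not independent replicates. The median difference was 2.72 cycles in the 29 members with a cytoplasmic CT under 25, 2.65 cycles in the 39 from 25 to 28 and 2.29 cycles in the 32 from 28 to 30. The middle group held the widest range, from 0.46 to 6.72 cycles. In all, 82 of the 100 measured members lay within 2-fold of the median, and the members further out on either side are described one by one.

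**Figure D1:**
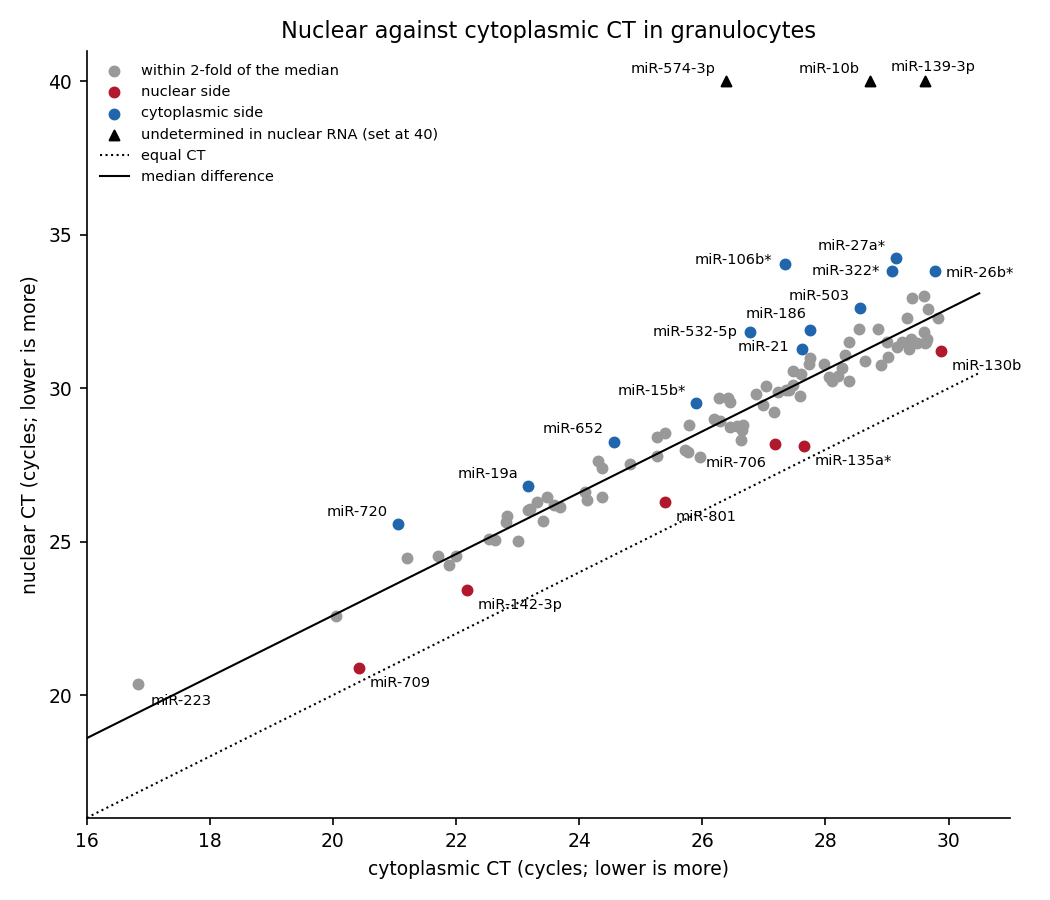
Nuclear CT against cytoplasmic CT of the 103 members in granulocytes, in cycles, 1 point per miRNA; the solid line is the median difference of 2.60 cycles and the dotted line equal CT. Red points lie 2-fold or more to the nuclear side of the median (6), blue points 2-fold or more to the cytoplasmic side (12), and the 3 triangles were undetermined in nuclear RNA; no measured member falls below the dotted line.

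A ratio over 0.1, the limit that the study used for its nuclear candidates, was reached by 7 members, which were miR-709, miR-135a*, miR-801, miR-706, miR-142-3p, miR-130b and miR-744. The count was 82 without the divisor of 3, 12 at 1.9-fold per cycle and 22 with a CT limit of 32. Among all 110 assays of the table that passed the same CT limit and were measured in both fractions, named or not, 14 had such a ratio (12.7%). Set against the median of the members, 6 of the 100 were 2-fold or more to the nuclear side, all of the above except miR-744, against 11.8% of the 110 assays. That count was 17 with a CT limit of 32 and 16 at a 1.5-fold limit. The excess in the background comes from 7 assays without a name, all of which had a lower CT in nuclear than in cytoplasmic RNA. Names were given to miRNA entries only, so these 7 can include control RNAs of the cards, which was not checked. The members are 100 of these 110 assays, so the shares differ only through the assays without a name.

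miR-709, which has been described in nuclei of other mouse cells, had the smallest difference. Its CT was 20.89 in nuclear, 20.43 in cytoplasmic and 20.43 in whole cell RNA, a difference of 0.45 cycles between the fractions and a ratio of 0.244. It was the second most abundant member in nuclear RNA after miR-223 by CT, and the third in cytoplasmic RNA after miR-223 and miR-16, where wells of different assays are set side by side without a standard. Its cytoplasmic and whole cell CTs were the same to the last digit, which held for no other member.

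miR-135a*, the passenger arm of miR-135a, was read at a nuclear CT of 28.11 and a cytoplasmic CT of 27.65, a difference of 0.46 cycles and a ratio of 0.242. Both miR-709 and miR-135a* lay to the nuclear side of the median, by 4.41-fold and 4.38-fold. miR-706 was read at a nuclear CT of 28.20 and a cytoplasmic CT of 27.19, a difference of 1.01 cycles and a ratio of 0.166. miR-801 was read at a nuclear CT of 26.28 and a cytoplasmic CT of 25.40, a difference of 0.89 cycles. The entry miR-801 was later removed from miRBase, since its sequence belongs to the U11 spliceosomal RNA.

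miR-142-3p was read at a nuclear CT of 23.42 and a cytoplasmic CT of 22.18, a difference of 1.23 cycles and a ratio of 0.142. Among the members with a nuclear CT under 25, only miR-709 had a smaller difference. miR-130b, which shares its seed with miR-301a and miR-301b, was read at a nuclear CT of 31.22 and a cytoplasmic CT of 29.88, a difference of 1.34 cycles. It stood just inside the CT limit of 30, and its nuclear CT was above it. miR-744 passed the ratio limit narrowly, with 28.32 in nuclear and 26.62 in cytoplasmic RNA and a ratio of 0.103, and let-7e, the next in order, stayed under it with 27.75 and 25.96 and a ratio of 0.0966.

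The remaining candidates of the study did not stand out in granulocytes. miR-690 was read at a nuclear CT of 25.02 and a cytoplasmic CT of 23.00, a difference of 2.02 cycles and a ratio of 0.0820. miR-467a* had 30.66 and 28.27, a difference of 2.39 cycles and a ratio of 0.0635. Both lay within 2-fold of the median. The 6 candidates together had a median difference of 1.12 cycles, and 4 of the 6 were on the nuclear side; the study chose them on these samples among others, so that count is no independent evidence of their direction.

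On the cytoplasmic side, 12 of the 100 measured members lay 2-fold or more from the median, against 10.9% of the 110 assays of the table. The count was 4 where both fractions had to be under a CT of 30, 5 with a CT limit of 28, 5 at a 3-fold limit and 21 at a 1.5-fold limit. The 12 were miR-106b*, miR-27a*, miR-532-5p, miR-322*, miR-720, miR-186, miR-503, miR-26b*, miR-652, miR-21, miR-19a and miR-15b*. Of these, 5 are passenger arms, out of 14 measured passenger arms among the members, and 7 are among the 86 other measured members. miR-106b*, from the miR-106b-25 cluster inside Mcm7, differed most of the measured members, with a nuclear CT of 34.07 and a cytoplasmic CT of 27.34, a difference of 6.72 cycles or 106-fold. It lay 17.5-fold to the cytoplasmic side of the median.

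miR-27a*, whose guide arm is tied to myeloid maturation, was read at a nuclear CT of 34.24 and a cytoplasmic CT of 29.15, a difference of 5.10 cycles. miR-322*, the passenger arm of a miRNA related to miR-16, had 33.84 and 29.09, a difference of 4.75 cycles, and miR-26b* had 33.82 and 29.78, a difference of 4.04 cycles. These 4 passenger arms and miR-877*, at 33.01 in nuclear and 29.60 in cytoplasmic RNA, were all 5 of the measured members with a nuclear CT above 33, so the differences of these 4 passenger arms rest on late nuclear CTs; miR-15b*, at a nuclear CT of 29.52, does not.

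The other large differences were measured at earlier cycles. miR-532-5p, from the cluster in the Clcn5 intron, was read at a nuclear CT of 31.84 and a cytoplasmic CT of 26.78, a difference of 5.06 cycles. miR-720, an entry removed from miRBase as a tRNA fragment, had 25.56 and 21.05, a difference of 4.51 cycles, the largest among the members with a nuclear CT under 30. miR-186 had 31.90 and 27.76, a difference of 4.14 cycles, and miR-503, the neighbour of miR-322, had 32.62 and 28.56, a difference of 4.06 cycles. miR-652 differed by 3.69 cycles, the inflammation-linked miR-21 by 3.66, miR-19a by 3.63 and miR-15b* by 3.62. miR-223, the member with the lowest CT, differed by 3.52 cycles and lay 1.89-fold to the cytoplasmic side of the median, short of the limit.

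Undetermined wells in nuclear RNA were listed at 40 for 3 members, miR-574-3p, miR-10b and miR-139-3p, with cytoplasmic CTs of 26.39, 28.73 and 29.62. If 40 is taken as the lowest CT these wells could have had, their differences were at least 13.61, 11.27 and 10.38 cycles. miR-10b, a miRNA of the Hox clusters, was undetermined in the nuclear RNA of all 4 stages, as was miR-139-3p. In LSK cells and promyelocytes miR-139-3p was also listed at 40 in cytoplasmic and whole cell RNA, so its nuclear wells there tell nothing of its place. miR-574-3p was measured in the nuclear RNA of promyelocytes at 31.53, of myelocytes at 32.45 and of LSK cells at 34.80. Its cytoplasmic well of LSK cells was also listed at 40, beside a whole cell CT of 29.37 there. In granulocytes only the single nuclear well stands behind its value. Whether either of these wells failed was not tested.

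Both arms of 16 hairpins were members, and in 15 of these both arms were measured in both fractions. The arms of a pair lie in 1 hairpin, but the guide arms of miR-24 and miR-135a also come from another, and the loci of miR-467a and miR-467a* were not checked. In 8 of the 15 pairs their nuclear minus cytoplasmic CTs lay 1 cycle or more apart. In 12 pairs the second arm is a starred passenger arm, and it had the larger difference in 10 of the 12. In 8 of the 12 the passenger arm had a nuclear CT above 30 and was a member only through its cytoplasmic CT, so this count is no evidence of a direction. Both arms were under 30 in both fractions in 3 pairs, those of miR-15b, miR-30e and miR-93, and the passenger arm had the larger difference in the first 2. The exceptions were miR-135a*, at -2.56 cycles relative to its partner, and miR-93*, at -0.17 cycles. Over the 12 pairs the passenger arm's difference exceeded the guide arm's by a median of 1.08 cycles.

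The widest pair was miR-106b with miR-106b*, at 2.54 and 6.72 cycles, so that the arms of this hairpin were 18.1-fold apart in their distribution. miR-27a and miR-27a* had differences of 2.15 and 5.10 cycles, miR-322 and miR-322* of 2.15 and 4.75, and miR-130b and miR-130b* of 1.34 and 3.54. miR-15b and miR-15b* had 2.25 and 3.62 cycles, and miR-26b and miR-26b* 2.86 and 4.04. The guide arms of these hairpins lay within 2-fold of the median except miR-130b.

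Smaller gaps were found for miR-24 and miR-24-2* at 2.41 and 3.39 cycles, miR-30e and miR-30e* at 2.27 and 2.95, miR-15a and miR-15a* at 2.01 and 2.49, and miR-93 and miR-93* at 2.97 and 2.80. miR-467a and miR-467a* were nearly alike at 2.31 and 2.39 cycles. All 12 starred arms were assigned to card B and their partners to card A. The card of an assay is not labelled and was inferred from the decimals of its CTs. The 11 members on card B without a star had a median difference of 2.25 cycles, between 0.45 and 4.51, against 2.54 cycles for the 75 measured members on card A. The part of the card and of the later cytoplasmic CT of the passenger arms, with a median of 28.41 against 26.59 for the other members, was not tested.

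On a single card, 3 pairs could be compared. miR-142-5p was read at a nuclear CT of 31.51 and a cytoplasmic CT of 28.38, a difference of 3.13 cycles, against 1.23 for miR-142-3p, so the arms were 3.73-fold apart with the 3p arm to the nuclear side. miR-126-3p and miR-126-5p, miRNAs of progenitors and endothelium, had differences of 1.85 and 1.97 cycles. miR-340-5p and miR-340-3p had 3.04 and 3.41. miR-139-5p was abundant, with 24.53 in nuclear and 21.71 in cytoplasmic RNA and a difference of 2.83 cycles, while its partner miR-139-3p was the member undetermined in nuclear RNA.

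**Figure D2:**
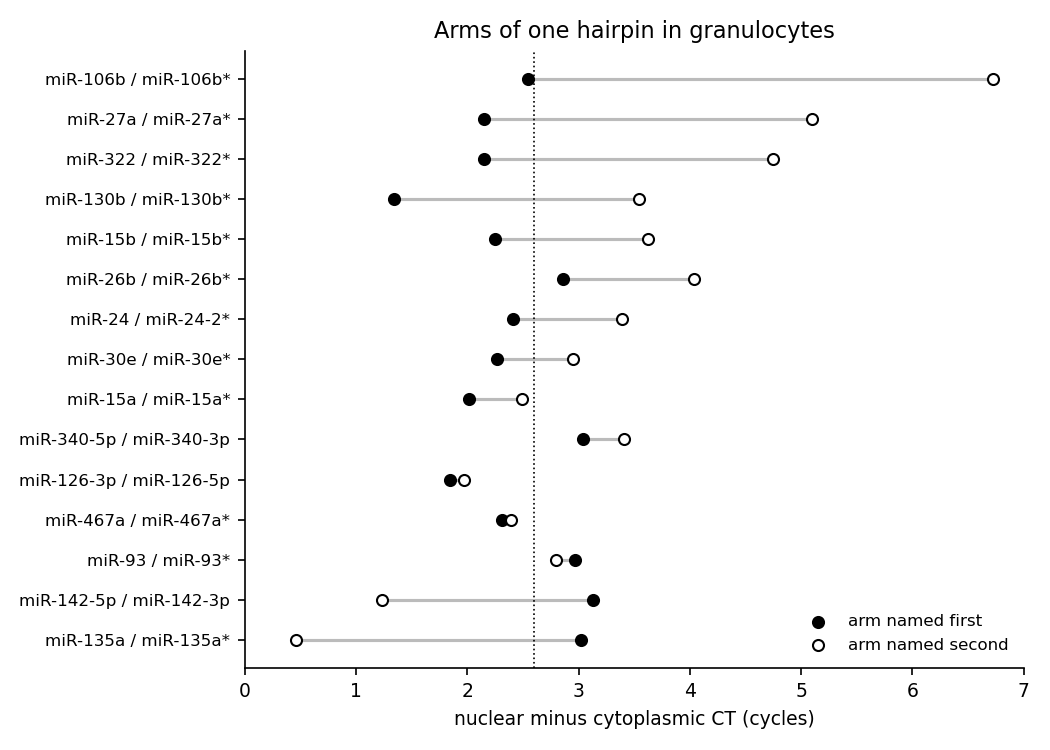
Nuclear minus cytoplasmic CT, in cycles, of both arms of the 15 hairpins with both arms measured; filled points are the arm named first, open points the arm named second, and the dotted line is the median of all members, 2.60 cycles. The open points lie to the right in 12 pairs, by 4.18 cycles for miR-106b, and to the left for miR-93, miR-142 and miR-135a.

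By family, the guide arms were spread around the median. Of the miR-17-92 cluster and its paralogs, which promote proliferation of progenitors, 11 of 13 were members and measured, with a median difference of 2.84 cycles, 0 on the nuclear side and 1 on the cytoplasmic side. They ran from miR-92a, at 26.44 in nuclear and 24.37 in cytoplasmic RNA and 2.07 cycles, to miR-19a, at 26.81 and 23.18 and 3.63 cycles. Its companion miR-19b, with the same seed, had 24.48 and 21.20, a difference of 3.27 cycles. miR-17, with the lowest nuclear CT of the others, had 24.25 and 21.89, a difference of 2.36 cycles.

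The let-7 family, known for restraining proliferation in differentiated cells, had 6 members of 9 listed and a lower median of 2.06 cycles, with none past either limit. Its differences ran from let-7e at 1.79 cycles to let-7i, at 28.82 in nuclear and 25.79 in cytoplasmic RNA, at 3.03 cycles. The family with the miR-15 and miR-16 seed, which represses cell cycle genes, had 5 members of 6 and a median of 2.25 cycles, from miR-15a at 2.01 to miR-195 at 3.34 cycles. Its member with the lowest CT, miR-16, had 22.58 in nuclear and 20.04 in cytoplasmic RNA, a difference of 2.54 cycles.

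All 5 guide arms of the miR-30 family were members, with a median of 2.59 cycles and values from 2.20 for miR-30a to 3.10 for miR-30d. miR-29a and miR-29c differed by 2.27 and 2.14 cycles, and miR-26a and miR-26b by 2.99 and 2.86. In the miR-23/24/27 clusters, miR-27b, miR-27a and miR-24 had 1.86, 2.15 and 2.41 cycles. miR-130b, miR-301b and miR-301a had 1.34, 1.998 and 2.45 cycles.

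Of 13 listed myeloid regulators 9 were members, with a median difference of 2.83 cycles, 1 on the nuclear side and 1 on the cytoplasmic side. They ran from miR-142-3p at 1.23 to miR-21 at 3.66 cycles; miR-21 was read at a nuclear CT of 31.28 and a cytoplasmic CT of 27.62. The toll-like receptor regulator miR-146a, at 29.88 and 27.23, had a difference of 2.65 cycles. Of 13 stem and progenitor cell miRNAs, 5 were members and 4 measured, which were miR-126-3p and miR-126-5p as above and the Kit-targeting miR-221 and miR-222 at 2.62 and 2.72 cycles. miR-150 and miR-181a, known from lymphocytes, differed by 3.11 and 2.46 cycles, and the co-transcribed miR-192 and miR-194 by 3.05 and 1.99. miR-101b, the only member of its family, differed by 2.25 cycles.

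The 3 members removed from miRBase were miR-801 at 0.89, miR-699 at 2.04 and miR-720 at 4.51 cycles, so this short list reached past both limits. The Sfmbt2 intron cluster, of 16 listed miRNAs, had only miR-467a and miR-467a* among the members, and the Clcn5 intron cluster, of 9, only miR-532-5p. The median of each list can be read against 2.60 cycles for all measured members.

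**Figure D3:**
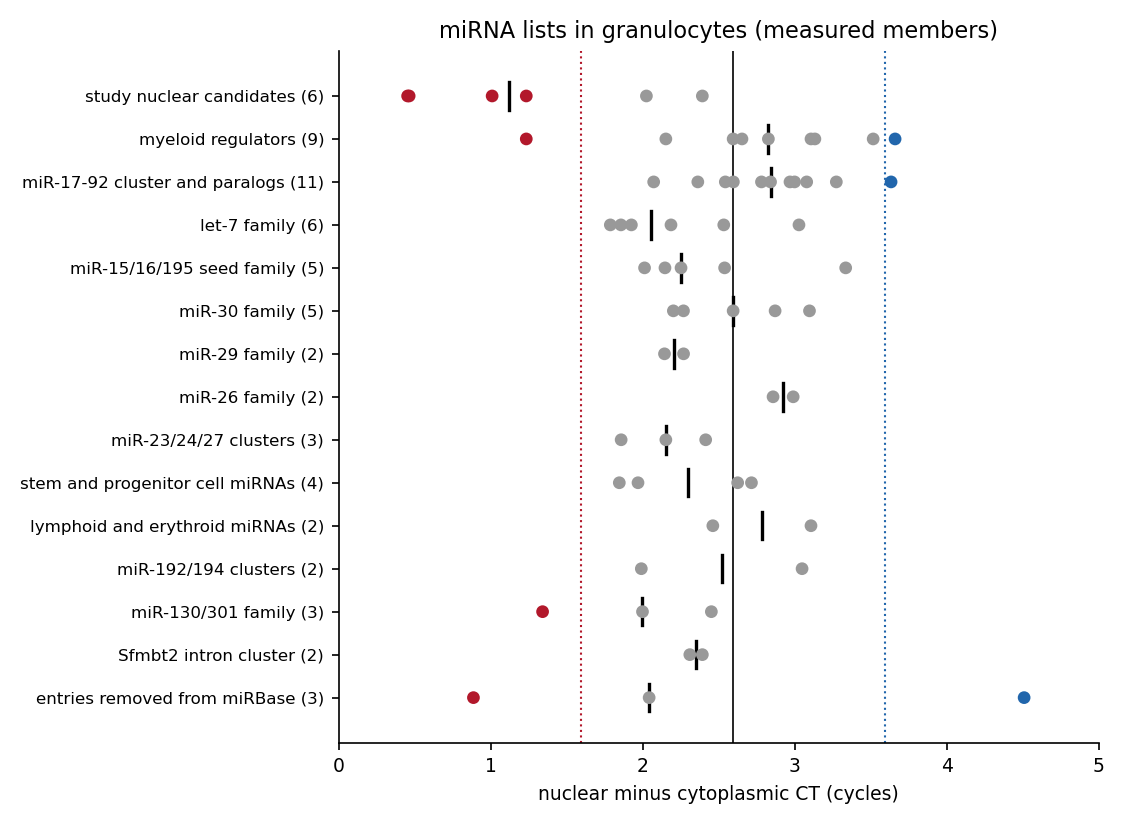
Nuclear minus cytoplasmic CT, in cycles, of the measured members of 15 lists with at least 2 measured members (numbers in brackets); black ticks are list medians, the solid line is the median of all members at 2.60 cycles, and the dotted lines stand 1 cycle to either side. Most families lie between the dotted lines; the study's candidates reach down to 0.45 cycles and the entries removed from miRBase span 0.89 to 4.51 cycles.

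Members with the same seed are often read from similar sequences. Among the 82 measured members with a RefSeq sequence, 34 fell into 11 groups with a common seed; members without one, such as miR-301b, miR-30b and miR-30d, are not in these counts. Within 8 of the 11 groups the differences spanned less than 1 cycle, but 6 of these 8 are pairs, and the quartiles of all measured members, 2.19 and 3.10 cycles, are themselves less than 1 cycle apart, so nothing particular to a common seed can be read from this. The 6 members with the seed AAAGUGC (miR-17, miR-20a, miR-20b, miR-93, miR-106a and miR-106b) lay between 2.36 and 3.08 cycles although their cytoplasmic CTs ran from 21.89 to 28.85. The 3 wider groups were those of let-7, of miR-15 and miR-16, and of miR-130b with miR-301a (miR-301b, at 1.998 cycles, lies between them), which spanned 1.24, 1.32 and 1.11 cycles. Assays of seed relatives can share signal where the sequences differ by few bases, and what part that has here was not tested.

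Length and base composition overlapped between the sides. The 4 members on the nuclear side with a sequence were 22 or 23 bases long with a median GC content of 40.9%, from 34.8% to 59.1%. The 68 within 2-fold of the median had a median of 45.5%, and the 10 with a sequence on the cytoplasmic side had 48.8%, from 34.8% to 63.6%. Over the 82 measured members with a sequence, the difference and the GC content had a Pearson's r of 0.15. The letters AGUGUU, known from the 3′ end of miR-29b as a nuclear import element, were searched in the mature strand alone and found in 1 member sequence, that of miR-142-3p, where they fall within and just after the seed. They occur in 12 of the 1679 mature mouse sequences of the reference table (0.715%), and a match is a description and not a site.

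Whole cell RNA gives another view of the same cells. The whole cell CT was lower than the cytoplasmic CT in 88 of the 103 members, with a median difference of -0.48 cycles and quartiles of -0.72 and -0.18. In 101 of the 103 it was lower than the nuclear CT. The exceptions were miR-801 and miR-706. Whole cell and cytoplasmic CT had a Pearson's r of 0.97 over the 103 members.

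A whole cell CT 1 cycle or more above the cytoplasmic CT was found for 4 of the 103 members, close to the 3.54% of the 113 assays of the table measured in both. miR-801 had 28.60 in whole cell and 25.40 in cytoplasmic RNA, 3.20 cycles higher, and miR-706 had 29.22 and 27.19, 2.03 cycles higher. miR-690 had 24.77 and 23.00, 1.78 cycles higher, and miR-494 had 31.05 and 29.61, 1.44 cycles higher. For miR-801 and miR-706, less was thus read in whole cells than in either of the fractions made from such cells. These are 2 of the 6 members on the nuclear side and 1 sample decides each value.

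The other 4 on the nuclear side did not share this. miR-709 had the same CT in whole cell and cytoplasmic RNA, and miR-135a*, at 26.86 in whole cells, stood at -0.79 cycles from its cytoplasmic CT. miR-142-3p had 20.63 in whole cells, which is -1.56 cycles from its cytoplasmic CT and the lowest of all members on this measure, and miR-130b had 28.83, which is -1.05 cycles. Over the 100 measured members the whole cell and the nuclear differences from the cytoplasmic CT had a Pearson's r of -0.10, and both contain the same cytoplasmic CT.

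**Figure D4:**
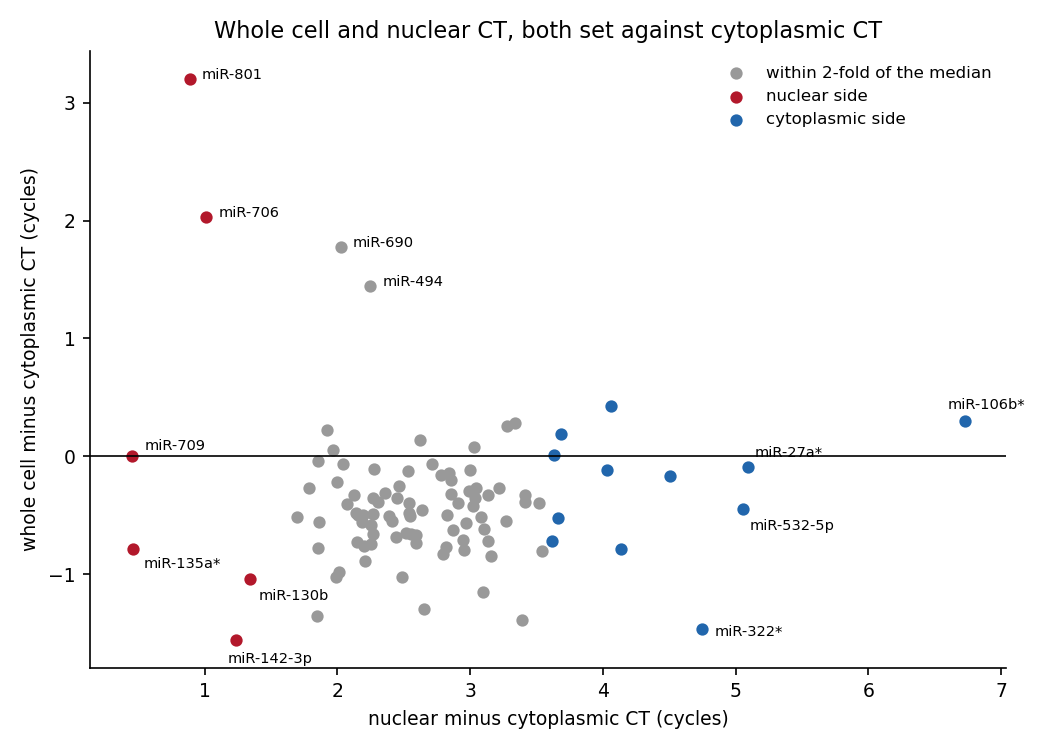
Whole cell minus cytoplasmic CT against nuclear minus cytoplasmic CT, in cycles, for the 100 members measured in all 3 granulocyte samples; colours as for the sides of the median. Most members lie between -1 and 0 on the vertical axis, while miR-801, miR-706, miR-690 and miR-494 lie 1.44 to 3.20 cycles above 0 and miR-142-3p lies at -1.56.

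The same members were read in the other stages, each with its own fractionation, so that stage and preparation cannot be told apart. The median nuclear minus cytoplasmic CT of the members was 4.29 cycles in LSK cells (92 measured), 2.88 in promyelocytes (93) and 4.17 in myelocytes (97), against 2.60 in granulocytes. The members' differences in granulocytes had a Pearson's r of 0.41 with those in LSK cells and 0.56 with those in promyelocytes over 92 members each, and 0.64 with those in myelocytes over 96. These correlations are across miRNAs measured by the same assays.

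The low positions of 4 assays assigned to card B recurred. miR-709 stood 2.14 cycles below the median in granulocytes, and ranked 4th of 92 in LSK cells, 3rd of 93 in promyelocytes and 5th of 97 in myelocytes from the smallest difference. miR-706 ranked 2nd, 1st and 1st, miR-801 7th, 5th and 2nd, and miR-135a* 8th, 9th and 4th. In LSK cells and promyelocytes the nuclear CT of miR-706 was below the cytoplasmic CT, with differences of -0.77 and -2.50 cycles, against 1.01 cycles in granulocytes.

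miR-142-3p and miR-130b did not hold such ranks. miR-142-3p ranked 5th in granulocytes but 23rd in LSK cells, 30th in promyelocytes and 22nd in myelocytes, with differences of 3.62, 2.61 and 3.32 cycles. miR-130b ranked 6th in granulocytes, 77th in LSK cells, 56th in promyelocytes and 15th in myelocytes. The converse held for miR-690, miR-467a* and miR-699. miR-690 ranked 5th, 6th and 6th in the earlier stages and 18th of 100 in granulocytes, and miR-467a* 3rd, 2nd and 3rd and then 38th. miR-699, an entry removed from miRBase, ranked 1st, 7th and 7th and then 19th.

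The cytoplasmic CT of miR-467a* was 29.31 in LSK cells, 30.75 in promyelocytes, 30.58 in myelocytes and 28.27 in granulocytes, while its nuclear CT was 29.66, 28.82, 31.86 and 30.66. miR-690 had cytoplasmic CTs of 24.12, 24.05, 23.51 and 23.00 and nuclear CTs of 25.35, 24.23, 25.11 and 25.02 in the same order. In granulocytes both had their lowest cytoplasmic CT of the 4 stages, while miR-699 had its highest there, at 27.17. No test of these differences is possible with 1 sample each.

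**Figure D5:**
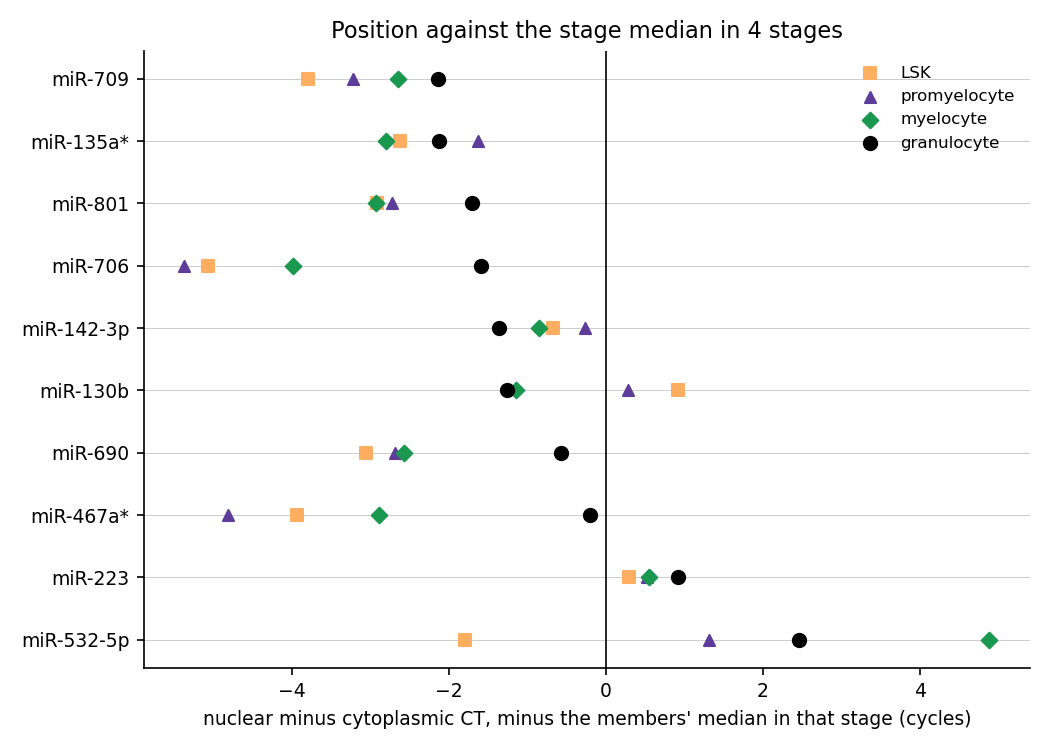
Nuclear minus cytoplasmic CT minus the members' median in the same stage, in cycles, for 10 miRNAs in LSK cells, promyelocytes, myelocytes and granulocytes, 1 sample per fraction and stage. miR-709, miR-135a*, miR-801 and miR-706 lie left of 0 in all 4 stages, while miR-690 and miR-467a* lie at -0.57 and -0.20 in granulocytes and further left in the other stages.

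Of the 12 members on the cytoplasmic side, 10 were measured in all 3 other stages. Of these, 5 (miR-652, miR-21, miR-503, miR-186 and miR-19a) lay above the members' median in each of the 3, and 5 (miR-15b*, miR-26b*, miR-322*, miR-532-5p and miR-720) lay below it in 1 of the 3. Members within 2-fold of the granulocyte median, such as miR-19b, miR-93 and miR-223, also lay above it in each of the 3. The share over all members was not counted, so nothing particular to the cytoplasmic side can be read from this. miR-652 and miR-21 had differences of 6.75 and 6.11 cycles in LSK cells, 5.64 and 4.48 in promyelocytes, and 5.34 and 7.66 in myelocytes. miR-532-5p had 2.501 cycles in LSK cells, below the median there, 4.19 in promyelocytes and 9.06 in myelocytes. miR-106b* could be measured in both fractions only in granulocytes, and miR-27a* also in promyelocytes, at 6.32 cycles.

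At the CT limit itself, the last members inside were miR-130b with a cytoplasmic CT of 29.88 and miR-181a with 29.84, and the first named assays outside were miR-33* with 30.05 and miR-185 with 30.12. Their nuclear CTs were 31.22, 32.30, 33.35 and 35.66.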

How the data were processed

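The authors called CT values with SDS 2.3 and RQ Manager on TaqMan rodent array cards A and B and deposited them as numbered assays without normalization; other details of the CT calling are not given in the sources used here. The values are cycles, a log2-like scale, and 40 stands for an undetermined well. No label gives the card of an assay. It was inferred from the number of decimals of the CTs along the assay numbering. By a unique match of their 8 fractionated CTs to those listed by the study, within 0.0005 cycles, 246 assays were named. Failing that, 23 assays were named by a match of whole cell differences to its list of stage changes, within 0.002. For this the differences were first put on the scale of that list, by straight lines fitted to assays already named. Names were given to miRNA entries only, so control RNAs of the cards stay among the assays without a name. All 12 columns map to samples, and 0 were left out. The members, lists and limits were chosen with earlier results of these data known. Named miRNAs are the study's 6 candidates, the 8 smallest and 8 largest differences, the 5 lowest CTs per fraction, undetermined members, the ends of each list, every arm pair, and the assays nearest the limit; miRNAs named beyond these were chosen after their values were seen. Members undetermined in a fraction were left out of medians, slopes and ratios. No test was made, since each group is 1 sample; the steps were tested on simulated data. Depth does not apply to CT values, and 1 well per assay gives no estimate of precision. Sequences are from RefSeq, GRCm38.p6, the build of the reference table and not of the deposited table, which names none. Computing used Python 3.11.15 (numpy 2.4.6, scipy 1.17.1, pandas 2.3.3), and figures were drawn in matplotlib 3.10.9.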

Additional observations from a re-analysis of the deposited data

Results flagged for a closer look

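For 5 members, among those measured in both fractions of both stages, the nuclear CT was above the cytoplasmic CT in granulocytes and below it in another stage; each stage is 1 sample, and the difference was not tested. The nuclear minus cytoplasmic CT of miR-706 was 1.01 cycles in granulocytes, -0.77 in LSK cells and -2.50 in promyelocytes. That of miR-709 was 0.45 cycles in granulocytes and -0.34 in promyelocytes. That of miR-467a* was 2.39 cycles in granulocytes and -1.94 in promyelocytes, where its cytoplasmic CT was above 30. miR-494 had 2.24 cycles in granulocytes and -0.12 in promyelocytes, and miR-699, an entry removed from miRBase, 2.04 cycles in granulocytes and -1.57 in LSK cells. The members' median differed between the stages as well, as given above.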

How the results depend on the processing

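The direction of the median held under each of the 6 alternatives tried. The median nuclear minus cytoplasmic CT was 2.68 cycles with a CT limit of 28, 2.54 with 32, 2.55 with both fractions under 30, 2.54 over all assays named or not, 2.62 with undetermined wells kept at 40, and 2.60 without entries removed from miRBase. The slope was 1.06 with undetermined wells at 40 and 0.958 with a CT limit of 32. The 7 ratios over 0.1 became 82 without the divisor of 3, 22 with a CT limit of 32, 14 over all assays and 12 at 1.9-fold per cycle. The 6 members on the nuclear side became 17 with a CT limit of 32, 13 over all assays and 16 at a 1.5-fold limit; with the median of each card they were the same 6. The 12 on the cytoplasmic side became 5 with a CT limit of 28, 4 with both fractions under 30, 5 at a 3-fold limit and 21 at a 1.5-fold limit. The first 2 of these keep fewer assays with late nuclear CTs. All other counts stayed within 1.5 times. No paired analysis was possible because each group is 1 sample. A CT near or above 30 limits what can be read, and 46 of the 103 members had a nuclear CT there.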

Other observations

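Of the assays without a name, which can include control RNAs of the cards, 12 had a CT under 30 in granulocyte nuclear or cytoplasmic RNA. In 7 of these, on both cards, the nuclear CT was lower than the cytoplasmic CT by 0.26 to 1.45 cycles, 1.20-fold to 2.74-fold more in the nuclear reaction, and in 3 the cytoplasmic CT was lower by 1.77 to 2.77 cycles. The other 2 were listed at 40 in granulocyte cytoplasmic and whole cell RNA, with nuclear CTs of 21.98 and 25.86 in granulocytes and 40 in the nuclear RNA of the other 3 stages. Elsewhere the first was read only in myelocyte whole cell RNA, at 36.60, and the second only in LSK and myelocyte cytoplasmic RNA, at 28.97 and 34.00. No name was given to either assay, and each value is 1 well of 1 sample.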
